A study of Homo sapiens with 2 samples.

Results

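The cluster of miR-183, miR-96 and miR-182 was examined in small RNA libraries of hCMEC/D3. This immortalised line of human brain capillary endothelium serves in vitro as a stand-in for the blood-brain barrier. Its members are the table's entries for 3 precursor hairpins, hsa-mir-183, hsa-mir-96 and hsa-mir-182, with both arms of each: 6 of 2363 rows, and 3 of 1600 hairpin names. The cluster was picked with its unequal levels already known, so the levels are a description and are not tested. The study holds 2 libraries of this line, labelled replicate 2 and replicate 8, and no second group. The labels name no treatment, genetic change or passage, and nothing in them says whether the replicates were separate cultures, so every spread between the libraries may be technical. Immortalisation is known to have been done with telomerase and a viral large T antigen, and the line is clonal, so it models the endothelial layer alone, without the pericytes and astrocytes of the barrier.

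The primary transcript of a miRNA cluster is cut in the nucleus by Drosha into hairpins, and each hairpin is cut by Dicer into a 5p and a 3p arm, of which usually 1 is kept in Argonaute. The kept arm finds its target mRNAs mainly through the seed, bases 2 to 8 from its 5′ end. The cluster is best known from sensory organs, where it is abundant in photoreceptors and inner ear hair cells, and mutations in the seed of miR-96 cause hereditary hearing loss. It is also known from epithelial tumours, and FOXO transcription factor mRNAs are established targets of miR-182 and miR-96.

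The mature 5p arms are shown first, because their seeds are alike but not identical and the levels differ widely between them. All 6 member names were matched to a RefSeq mature sequence (table of build GRCh38.p14). The seed is in capitals, and miR-1271-5p, which comes from another chromosome, is added because it carries the seed of miR-96-5p.
miR-183-5p: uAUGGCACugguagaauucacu
miR-96-5p: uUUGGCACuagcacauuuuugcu
miR-182-5p: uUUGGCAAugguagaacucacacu
miR-1271-5p: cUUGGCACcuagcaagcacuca

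Counting from 1 at the 5′ end and naming the base of the first miRNA first, the seed of miR-96-5p differs from that of miR-182-5p by C8A alone. The seed of miR-183-5p differs from that of miR-96-5p by A2U alone, and from that of miR-182-5p by both A2U and C8A. The 3 arms share the letters UGGCA at positions 3 to 7. Behind the seed the kinship is different. miR-183-5p and miR-182-5p share the 8-base run UGGUAGAA from position 9 in both, and have the same base at 18 of 22 positions (81.8%). miR-96-5p matches miR-183-5p at 13 of 22 positions (59.1%) and miR-182-5p at 12 of 23 (52.2%). miR-96-5p is also the most U-rich of the 3 arms, with 43.5% U against 31.8% in miR-183-5p and 29.2% in miR-182-5p. Its longest run of U is 5 bases, and the run UUUUU, searched on the mature strand, was present in 34 of the table's 1716 names with a RefSeq sequence (1.98%).

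The member reads can be assigned to 1 locus each. Each 5p sequence occurs exactly 1 time in the GRCh37 genome on either strand, no other name in the RefSeq table has the same sequence, and each name has a single row in the counts table. The most similar pair, miR-182-5p and miR-183-5p, is 5 edits apart, and miR-96-5p is 7 edits from its closest other name, miR-4679. The submitters' processing notes name hg19, which is GRCh37, and positions are given in that build from the GENCODE annotation mapped to it.

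The hairpins lie on chromosome 7, on the minus strand, within 4632 bases. In the direction of transcription MIR183 comes first at chr7:129414745-129414854, followed after 135 bases by MIR96 at chr7:129414532-129414609. MIR182 comes last at chr7:129410223-129410332, and 4199 bases separate it from MIR96. The 5p arms themselves lie at chr7:129414807-129414828 (miR-183-5p), chr7:129414579-129414601 (miR-96-5p) and chr7:129410287-129410310 (miR-182-5p). All 3 hairpins lie inside the lncRNA gene ENSG00000286380, annotated on the same strand at chr7:129402900-129420060. It has 1 transcript that spans them, which has no exon at any of the 3, so they are intronic in it. The first hairpin is 5206 bases from the 5′ end of that gene. The nearest protein-coding gene within 50 kb is NRF1, on the opposite strand, whose annotated end is 13301 bases from the cluster.

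The hairpins of MIR96 and MIR182 are shown with the 5p arm in capitals, since they frame the lowest and the highest member. RefSeq lists them with 78 and 110 bases, and in both 20 bases lie between the 5p and the 3p arm.
hsa-mir-96: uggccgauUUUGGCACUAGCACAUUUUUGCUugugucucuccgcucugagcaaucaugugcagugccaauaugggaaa
hsa-mir-182: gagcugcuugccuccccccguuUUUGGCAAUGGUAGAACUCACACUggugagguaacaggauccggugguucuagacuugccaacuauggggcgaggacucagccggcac

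The libraries had almost equal depth, with 2721287 counts in replicate 2 and 2727675 in replicate 8 after repeated rows of a mature name were reduced to 1. Levels are in CPM, counts scaled to a total of 1000000, and 3 counts correspond to 1.10 CPM in either library. The endothelial marker miR-126-3p was the most abundant miRNA in both libraries, with 297696 and 313837 counts, and its other arm miR-126-5p had 1930 and 1850. Of the 8 markers of other cell types, 4 had at most 3 counts in both libraries, among them the blood cell miRNAs miR-142-3p and miR-223-3p and the epithelial miR-141-3p with none, and the highest was the liver miRNA miR-122-5p with 639 and 688 counts. The other epithelial marker, miR-200c-3p, was detected with 118 and 85 counts, and the muscle miRNA miR-133a with 21 and 16. The 8 summed to 291 CPM in replicate 2 and 293 CPM in replicate 8. Intervals cover counting error of reads only. The protocol names no molecular identifiers and PCR copies are not independent molecules, so the intervals do not cover the error of counting molecules.

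The cluster gave 3645 reads in replicate 2 and 4328 reads in replicate 8. Replicate 2 thus had 0.134% of all counts on the cluster (95% Wilson interval 0.130 to 0.138), and replicate 8 had 0.159% (0.154 to 0.163), or 1463 ± 175 CPM (SD, n = 2). Nearly all of it came from 2 arms. Over both arms of the hairpins, 3 of the 6 names reached 10 counts in both libraries, which is the detection minimum, against 26.6% of all 2042 mature names. All 3 were 5p arms, of which 36.5% were detected in the whole table, and no 3p arm of the cluster was detected, against 30.7% of 3p names.

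miR-182-5p, the most abundant member, had 1987 reads in replicate 2 and 2237 in replicate 8. Its level was 775 ± 63.6 CPM (SD, n = 2), which placed it 100th of 2042 names in replicate 2 and 92nd in replicate 8. It therefore belonged to the upper part of the profile without being among its leading miRNAs.

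miR-183-5p had 1596 reads in replicate 2 and 2026 in replicate 8, a level of 665 ± 111 CPM (SD, n = 2). Its ranks were 111 and 98. The values of miR-182-5p and miR-183-5p overlapped between the libraries, since miR-182-5p in replicate 2 (730 CPM) was below miR-183-5p in replicate 8 (743 CPM). Within each library miR-182-5p was the higher. Its ratio to miR-183-5p was 1.24 in replicate 2 (exact interval 1.17 to 1.33) and 1.10 in replicate 8 (1.04 to 1.17). The order was thus the same in both libraries. These intervals cover counting error of reads only, and the order itself was not tested.

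miR-96-5p had 59 reads in replicate 2 and 59 in replicate 8, a level of 21.7 ± 0.036 CPM (SD, n = 2) with ranks of 355 and 349. Equal counts at this depth still leave a wide range, with a 95% exact interval of the log2 ratio between the libraries from -0.55 to 0.54. Both values lay far below those of the other 5p arms.

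**Figure D1:**
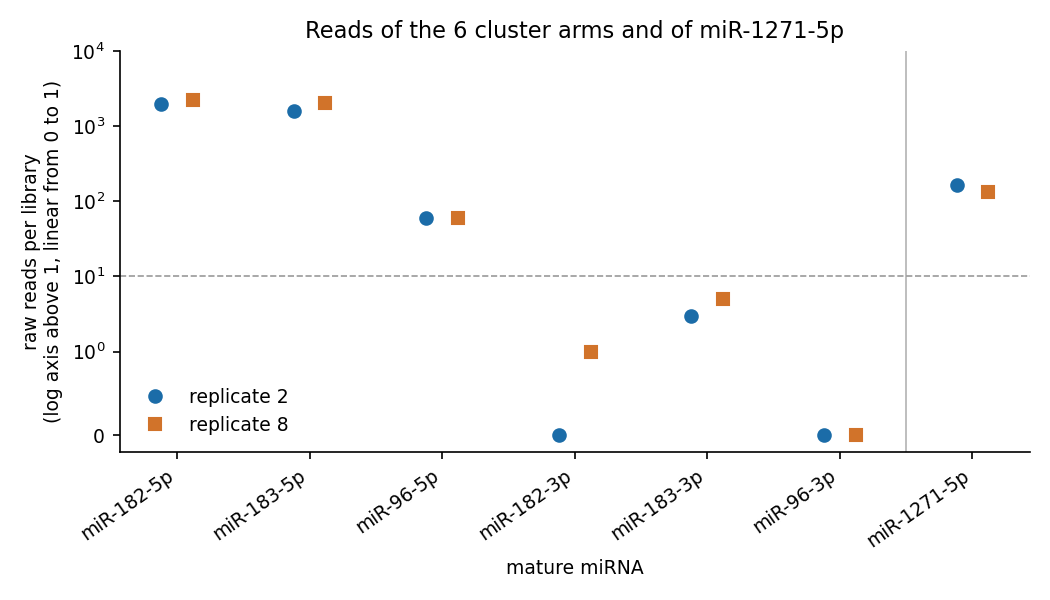
Raw reads (y, logarithmic above 1 and linear from 0 to 1) of the 6 arms of the cluster and of miR-1271-5p (x) in replicate 2 (circles) and replicate 8 (squares), with the detection minimum of 10 as a dashed line. miR-182-5p and miR-183-5p sit between 1596 and 2237 reads, miR-96-5p at 59 in both libraries below miR-1271-5p at 166 and 131, and the 3p arms at 0 to 5.

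The 3p arms were close to absent. miR-183-3p had 3 and 5 reads, miR-182-3p had 0 and 1, and miR-96-3p had none in either library, which allows up to 1.10 CPM in each. Of the reads of hsa-mir-183, the 5p arm held 99.81% (95% Wilson interval 99.45 to 99.94) in replicate 2, and it held 99.75% (99.43 to 99.89) in replicate 8. For hsa-mir-182 it held 100% of 1987 reads in replicate 2 (99.81 to 100) and 99.96% of 2238 in replicate 8 (99.75 to 99.99). For hsa-mir-96 it held 100% of 59 reads in both libraries (93.89 to 100). At this depth the floor of 3 counts corresponds to a 3p share of 5.08%, compared with 0.151% for hsa-mir-182 in replicate 2. The tests of arm shares could not have passed for hsa-mir-96 and hsa-mir-182, with 3p reads of 0 and 0 and of 0 and 1. They decide nothing for these hairpins. For hsa-mir-183, with 3p reads of 3 and 5, no difference between the libraries was shown. The result was the same for each of the 3 hairpins (two-sided Fisher's exact test, p = 1 before and after adjustment over 6 tests). A 5p share above 99% in both libraries was found for 49 of 212 hairpins of the table with both arms listed and at least 50 counts per library (23.1%), and these 3 are among them.

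Within the cluster, the share of miR-182-5p was 54.5% (95% Wilson interval 52.9 to 56.1) for replicate 2 and 51.7% (50.2 to 53.2) for replicate 8. miR-183-5p held 43.8% (42.2 to 45.4) and 46.8% (45.3 to 48.3). miR-96-5p held 1.62% (1.26 to 2.08) and 1.36% (1.06 to 1.75). The intervals of miR-96-5p overlap, and those of miR-182-5p overlap narrowly.

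In ratios, miR-182-5p had 33.7 times the reads of miR-96-5p in replicate 2 (95% exact interval 26.0 to 44.4) and 37.9 times in replicate 8 (29.3 to 49.97). miR-183-5p, whose hairpin is only 135 bases upstream of MIR96, had 27.1 times the reads of miR-96-5p (20.9 to 35.7) and 34.3 times (26.5 to 45.3). Reads of different miRNAs are compared as counted here, and whether these sequences are captured equally was not tested. The level did not follow the order along the locus, since the lowest member lies between the others. The hairpins with the higher levels are those annotated with 110 bases, against 78 for MIR96, and their 5p arms are those that share the run UGGUAGAA. Whether annotated length or shared run bears on the level was not tested.

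**Figure D2:**
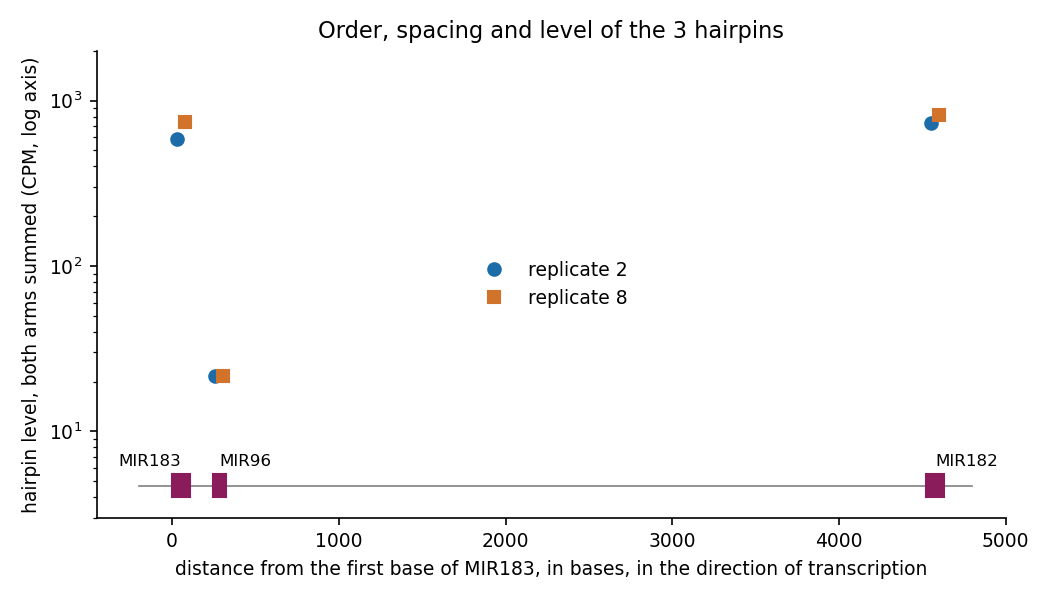
Level of each hairpin with both arms summed (y, CPM on a log axis) at its distance in bases from the first base of MIR183 (x), for replicate 2 (circles) and replicate 8 (squares), with the hairpins drawn to scale as boxes along the line. MIR96, 135 bases behind MIR183, is at 21.7 CPM in replicate 2, whereas MIR183 and MIR182 at either end are between 588 and 820 CPM.

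The ratio of miR-182-5p to miR-183-5p was 1.24 in replicate 2 (95% exact interval 1.17 to 1.33) and 1.10 in replicate 8 (1.04 to 1.17). This change by a factor of 0.887 had a raw p of 0.00838 (two-sided Fisher's exact test). Its adjusted p over the 3 ratios and 3 arm shares was 0.0503 (same test), which did not pass the threshold of 0.05. The arm shares of hsa-mir-96 and hsa-mir-182 could not have passed, and counting them raises this adjusted p. Whether the change is called therefore depends on the choice of tests adjusted together. The share of miR-182-5p in the cluster, nearly the same question, had p = 0.0124 (two-sided Fisher's exact test, not adjusted). For the ratios to miR-96-5p the adjusted p was 1 with miR-182-5p and 0.663 with miR-183-5p (two-sided Fisher's exact test). With 59 reads in the denominator, the intervals of these ratios leave room for changes of the size seen between the other 2 arms. All of these tests compare 2 libraries, not conditions.

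Between the libraries, miR-183-5p was higher in replicate 8 by 0.34 on the log2 scale (95% exact interval 0.25 to 0.44, exact binomial test, adjusted p = 1.66e-11). miR-182-5p was higher by 0.17 (0.08 to 0.26, exact binomial test, adjusted p = 0.000804). The log2 ratio of miR-96-5p was -0.0034 (exact binomial test, adjusted p = 1). Thus 2 of the 3 tested members were higher in replicate 8 and none was lower, beside 10.8% higher and 23.5% lower among all 695 names with at least 10 summed counts. Calls are more frequent at high counts: of 217 names with at least 500 summed counts, 58 (26.7%) were higher in replicate 8. The direction of the split over all names rests on scaling, with 75 higher and 163 lower by total counts, 105 and 119 with TMM (trimmed mean of M-values) sizes and 115 and 107 with DESeq2 size factors. DESeq2 size factors raise every log2 ratio by 0.11, and miR-182-5p (0.28) and miR-183-5p (0.45) remained higher in replicate 8 with them.

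Differences of this size were common between these libraries. The biological coefficient of variation from edgeR's common dispersion, estimated with TMM scaling, was 22.8%, which implies an SD of 0.47 for a log2 ratio between 2 libraries. On the same TMM scale the log2 ratios were below this, at 0.25 for miR-182-5p and 0.43 for miR-183-5p. By total counts they were 0.17 and 0.34. For the 367 names whose counts summed to 100 or more, absolute log2 ratios by total counts had a median of 0.21. Of these names, 60.8% had a larger absolute ratio than miR-182-5p and 35.4% a larger one than miR-183-5p. Ratios by total counts are not centred, with a median log2 ratio of -0.11 over names with at least 10 summed counts. The summed cluster was higher in replicate 8 by 0.24 on the log2 scale (95% exact interval 0.18 to 0.31). No member with at least 10 summed counts differed by 2-fold, which 12 of the 367 names did.

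**Figure D3:**
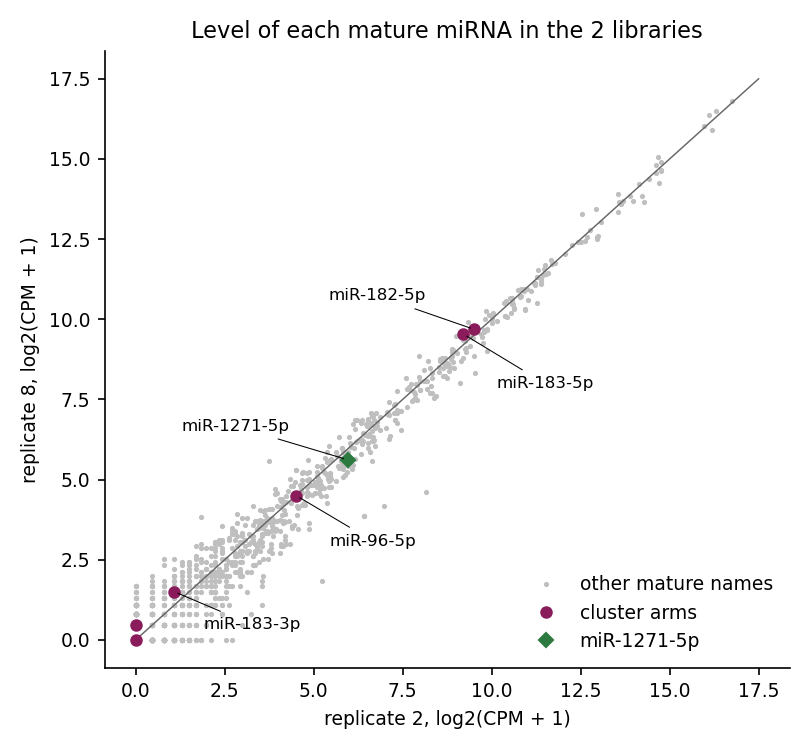
Level of every mature name as log2(CPM + 1) in replicate 2 (x) and replicate 8 (y), with the 6 cluster arms as filled circles, miR-1271-5p as a diamond and the line of equal values. miR-182-5p and miR-183-5p lie slightly above the line, miR-96-5p lies on it at 21.7 CPM, and the 3p arms lie at or near 0.

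Grouped by seed, the cluster contributed unequally to its 3 seeds. For AUGGCAC and UUGGCAA, miR-183-5p and miR-182-5p were the only names among the 1716 with a RefSeq sequence. The seed UUGGCAC was carried by 2 names, miR-96-5p and miR-1271-5p, which lies at chr5:175794963-175794984 on the plus strand (GRCh37). miR-1271-5p had 166 reads in replicate 2 and 131 in replicate 8, a level of 54.5 ± 9.17 CPM (SD, n = 2), with ranks of 255 and 264. It was above miR-96-5p in both libraries without overlap.

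miR-1271-5p exceeded miR-96-5p by 2.81 times in replicate 2 (95% exact interval 2.08 to 3.85) and 2.22 times in replicate 8 (1.62 to 3.07). The part of the UUGGCAC reads that came from the cluster was 26.2% for replicate 2 (95% Wilson interval 20.9 to 32.3), and 31.1% for replicate 8 (24.9 to 38.0). The log2 ratio of miR-1271-5p between the libraries was -0.34 (-0.69 to -0.0058, exact binomial test, adjusted p = 0.107), which did not pass the threshold. Compared over 22 positions without gaps, the 2 arms have the same base at 9. The likeness of miR-1271-5p and miR-96-5p is not limited to the seed, since both carry UAGCA behind it, offset by a base. With gaps allowed they are 9 edits apart, against 10 for miR-96-5p and miR-182-5p.

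On the shorter match of bases 2 to 7, UUGGCA, miR-96-5p, miR-182-5p and miR-1271-5p form 1 group with 2212 reads in replicate 2 and 2427 in replicate 8, or 851 ± 54.4 CPM (SD, n = 2). Of these reads miR-182-5p gave 1987 and 2237. The core UGGCA at positions 3 to 7 was found in 9 of the 1716 names (0.524%). Of these 9, 4 were detected, the 3 members and miR-1271-5p, and none of the other 5 had more than 1 read over both libraries. The core group summed to 1516 ± 165 CPM (SD, n = 2).

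The inequality within the cluster was set beside other clusters. Of the table's 1600 hairpins, 1317 were located in the annotation, and hairpins on the same strand with gaps of at most 10 kb were joined. Among the located hairpins this gave 11 clusters with at least 3 detected members, and the fold between the highest and the lowest detected hairpin ran from 1 in the near-identical copies of mir-941 to 3022, averaged over the libraries, between mir-92a-2 and mir-20b. The miR-183 cluster, with 35.8 ± 3.01 (SD, n = 2), was 6th of 11 in either library. Clusters with fewer than 3 hairpins both located and detected are missing from this order, and a partly located cluster enters with its located hairpins only. Among the missing are the clusters of miR-17, miR-23a and miR-23b, each with at least 3 detected hairpins. With these 3 added, it was 7th of 14 in either library. Its neighbours in the order were the mir-127 to mir-431 group with 45.0 and the mir-503 to mir-450b group with 26.0. Some of these clusters have more hairpins, and mir-92a-2 shares reads with a second locus, so the folds are a description.

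**Figure D4:**
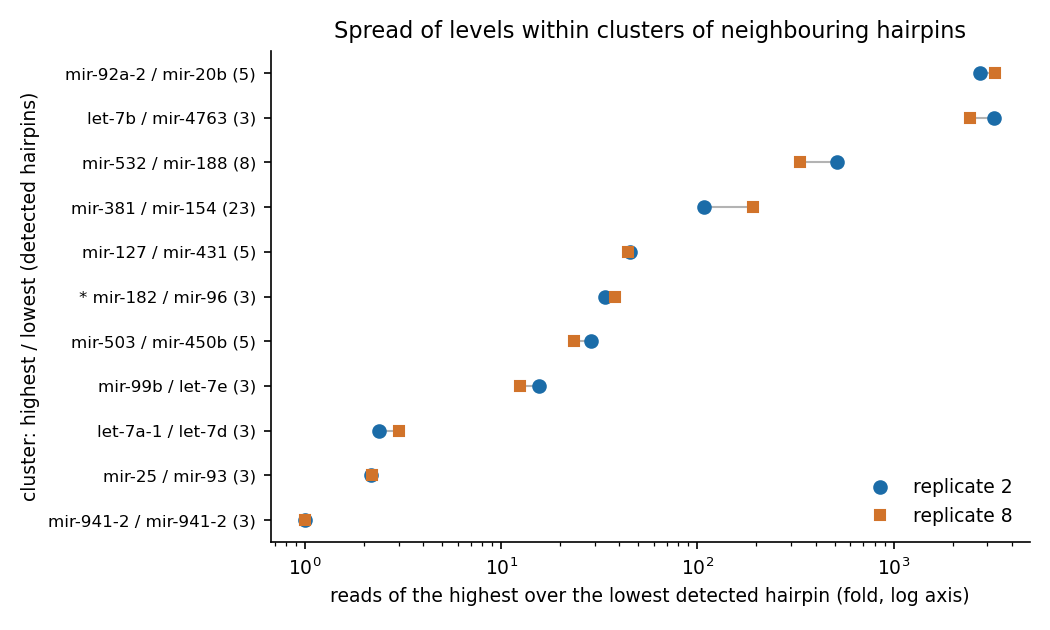
Reads of the highest over the lowest detected hairpin (x, fold on a log axis) in each of the 11 clusters joined by position (y, named by the highest and lowest hairpin, with the number of detected hairpins), in replicate 2 (circles) and replicate 8 (squares). The miR-183 cluster, marked with an asterisk, is 6th with 33.7 and 37.9.

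Of the other listed clusters of 3 hairpins, those with all hairpins detected had smaller folds. The listed cluster of miR-200b, miR-200a and miR-429 had 6.08 in replicate 2. It has no fold in replicate 8, where hsa-mir-429 had 0 reads. In the cluster of miR-106b, miR-93 and miR-25, which also has 3 hairpins, the highest hairpin had 2.17 times the reads of the lowest in replicate 2 and 2.20 times in replicate 8. In that of miR-99b, let-7e and miR-125a the values were 15.6 and 12.4. In that of miR-23a, miR-27a and miR-24-2 they were 3.995 and 4.54, and in that of miR-23b, miR-27b and miR-24-1 they were 14.7 and 15.0, where miR-24 reads also fit a second hairpin. The miR-17-92a cluster, with 6 hairpins, spanned 1279 and 3120, between mir-92a-1, whose mature arm has a second locus, and mir-19a with 33 and 13 reads. The miR-183 cluster had 2 members of similar level and 1 low member.

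The named miRNAs closest in level to the members, by Euclidean distance of log2(CPM + 1) over the 2 libraries, came from other loci. miR-193b-3p was nearest to miR-182-5p, with 1997 and 2223 reads and a distance of 0.01, followed by miR-148b-3p and miR-345-5p. miR-221-5p was nearest to miR-183-5p, with 1605 and 1794 reads and a distance of 0.18, followed by miR-381-3p and miR-20a-5p. miR-500b, with 56 and 58 reads, was nearest to miR-96-5p at a distance of 0.08, followed by miR-542-3p and miR-3181. With only 2 libraries this likeness is one of level.

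Finally, the cluster was set beside 11 miRNAs known with it from sensory organs and epithelia. The list holds the miR-200 family (miR-200a-3p, miR-200b-3p, miR-200c-3p, miR-141-3p and miR-429) and the epithelial miR-205-5p and miR-203a, with the neural and retinal miR-124-3p, miR-9-5p, miR-204-5p and miR-211-5p. Together they gave 409 reads in replicate 2 and 249 in replicate 8, 121 ± 41.7 CPM (SD, n = 2), below the level of miR-182-5p or of miR-183-5p alone. Of the 11, 4 were detected, beside 26.6% of all names. The highest by mean level were miR-9-5p with 117 and 92 reads and miR-200c-3p with 118 and 85, whose order differed between the libraries. The pair known from retinal pigment epithelium was low, with 8 and 8 reads for miR-204-5p and 0 and 1 for miR-211-5p.

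Of the 8 list members with enough counts to test, 4 were lower in replicate 8 and none higher by the exact binomial test, under total counts, TMM sizes and DESeq2 size factors alike. Over all 695 names 23.5% were lower by total counts, and 119 and 107 names were lower with the other scalings. The 4 list members called lower were miR-200a-3p (29 and 3 reads), miR-200b-3p (76 and 27), miR-429 (13 and 0) and miR-205-5p (15 and 0). Of these, miR-200a-3p, miR-200b-3p and miR-429 come from 1 cluster, so neither the calls nor the median below are over independent names. The tested members miR-200c-3p, miR-203a, miR-9-5p and miR-204-5p were not called. The log2 ratio of miR-200b-3p was -1.48 (95% exact interval -2.19 to -0.85, exact binomial test, adjusted p = 6.63e-06). The median log2 ratio over the 8 was -0.98, beside -0.11 over all 695 names tested, and it is the same with the 2 names at 0 reads set to the floor of 3 counts. miR-182-5p and miR-183-5p were higher in the library in which these 4 were lower, and the part of epithelial miRNAs in the cluster's difference between the libraries was not tested.

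**Figure D5:**
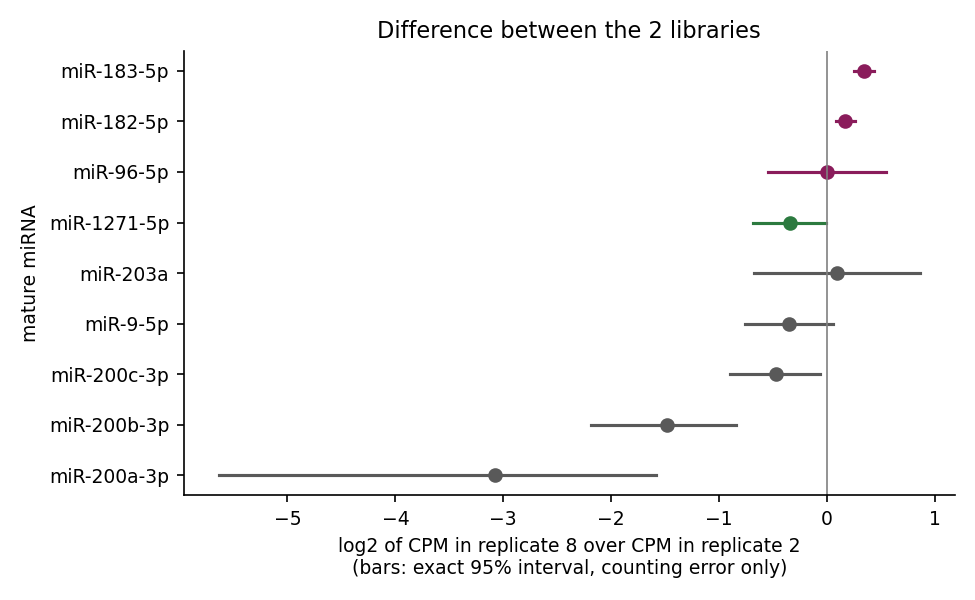
Log2 of the level in replicate 8 over replicate 2 (x, after adding 0.5 counts, bars are exact 95% intervals of counting error) for the 3 detected cluster arms, miR-1271-5p and 5 miRNAs of the sensory and epithelial list (y). miR-183-5p and miR-182-5p lie to the right of 0, the interval of miR-96-5p spans 0, and miR-200b-3p and miR-200a-3p lie to the left at -1.48 and -3.08.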

How the data were processed

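Small RNA of 2 hCMEC/D3 libraries was sequenced after adaptor ligation, PCR and gel selection, per the labels' protocols. The submitters' processing notes list CASAVA 1.9, FastQC, cutadapt, Bowtie 0.12.7 and build hg19, and the counter and miRBase release are not given in the sources used here. The deposited table holds raw counts and RPM values for each mature and precursor name, per the file headers. RPM was used only as an alternative scale. Where a mature name had several rows, that with the most counts on average was kept, and CPM was computed on the resulting totals. All columns of values belong to these libraries. There is 1 group, so there was no contrast for edgeR's quasi-likelihood test, and edgeR gave only the common dispersion. A two-sided exact binomial test compared the libraries over the 695 names with at least 10 summed counts, with Benjamini-Hochberg adjustment at 0.05 (SciPy 1.17.1). Log2 ratios used a pseudocount of 0.5 counts. TMM sizes came from edgeR 4.0.16 and size factors from DESeq2 1.42.0. Clusters were joined by position in GENCODE at gaps of up to 10 kb. Beside the members, names were taken by seed, by nearest level (3 per 5p arm) and from short lists of sensory, epithelial and marker miRNAs. Where the table had no arm in the name (miR-133a), that row was used. Alternatives covered repeated rows, scaling, denominators, thresholds, pseudocounts and each library alone. Members and lists were chosen with earlier results of these data known. The comparison of clusters by position and of miR-1271-5p with miR-96-5p was added after the data were seen.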

Additional observations from a re-analysis of the deposited data

How the results depend on the processing

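The cluster sum depended on the denominator. It was 1253 CPM with the rows of a name summed or with all rows kept in the total, 1248 on the deposited RPM scale and 1648 with the most abundant miRNA left out of the total, against 1463 as reported, all of which change the denominator by construction. The log2 ratio of the cluster sum was 0.33 under TMM scaling and 0.36 under DESeq2 size factors (both chosen after seeing the data) against 0.24. That of miR-96-5p turned from -0.0034 to 0.083 and 0.11, with no call under any of these scalings (exact binomial test, adjusted p from 0.851 to 1). Both shifts are those of the scaling factors. miR-182-5p (0.17 to 0.28) and miR-183-5p (0.34 to 0.45) kept their direction and call under each scaling and pseudocount tried. The number of detected members was 4 with at least 1 count and 2 with at least 100. The number of names that differed between the libraries ran from 212 to 238, but the filters on counts also changed how many names were tested. It was 238 of 695 as reported and 212 of 367 with at least 100 summed counts. With a single library the cluster sum ran from 1339 to 1587 CPM, the share of miR-182-5p from 51.7% to 54.5%, its ratio to miR-183-5p from 1.10 to 1.24 and to miR-96-5p from 33.7 to 37.9, and miR-183-5p to miR-96-5p from 27.1 to 34.3. A single library of 2 always lies within 1 SD of their mean, so this shows nothing about stability. No paired analysis was possible because there is only 1 group. The 59 reads of miR-96-5p limit every statement on it, and the 3p arms are too low for any ratio.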
